A study of Mus musculus with 2 samples.

Results

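Polycomb repressive complex 2 (PRC2) is represented here by 10 genes, which were taken by their symbols from a table of 18888 genes. They are the catalytic subunits Ezh2 and Ezh1, the core subunits Eed, Suz12, Rbbp4 and Rbbp7, and the accessory subunits Mtf2, Phf19, Jarid2 and Aebp2. All 10 symbols were found, each in 1 row, and all 10 passed the expression filter that 12263 genes of the table passed. The RNA came from 46C mouse embryonic stem cells (mESCs), a line in which a green fluorescent protein reporter was placed into the Sox1 locus. PB mESCs carried the empty PiggyBac vector, and PB-TERRA mESCs carried the same vector with telomeric DNA repeats, from which polyadenylated TERRA, the noncoding RNA of telomeres, was expressed. Both were cultured on gelatin and were at passages 21 to 24. Each condition was sequenced as 1 library, so no spread between cultures can be given and no difference has a replicate check. The sources used here do not say whether the transfected cells were single clones or pools.

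PRC2 places methyl groups on lysine 27 of histone H3, a mark of silent chromatin. Ezh2 or its paralogue Ezh1 holds the methyltransferase domain, and it is active only together with Eed and Suz12. Eed binds the finished mark and thereby stimulates the enzyme, Suz12 holds the complex together, and Rbbp4 and Rbbp7 are histone-binding proteins that also serve in other chromatin complexes. The accessory subunits come in alternative sets. In one form a Polycomb-like protein, such as Mtf2 or Phf19, brings it to CpG-rich DNA, and in the other Jarid2 and Aebp2 take this place. In mESCs PRC2 holds developmental regulators at a low level of expression, although the cells renew themselves without it. TERRA has been reported to bind PRC2. The study sequenced these libraries to look for targets of TERRA.

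Expression was given per gene as FPKM, fragments scaled for gene length and for the number of mapped reads, so levels of different genes may be set side by side. The number of reads behind a value was estimated from the FPKM, the gene length and the depth of the library, which the steps between low FPKM values gave as 24775000 reads for PB and 24890000 for PB-TERRA. The 95% intervals below are exact binomial (Clopper-Pearson) intervals on these reads and cover counting error only. Differences are given as the log2 of FPKM + 0.1 in PB-TERRA over that in PB. Over the 12263 genes past the filter, at least 1 FPKM in at least 1 library, the median log2 ratio was -0.0044 and the SD across genes was 0.31. The 8 mESC markers examined, among them Pou5f1 and Nanog, lay between 49.74 and 1162.5 FPKM in PB mESCs.

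The levels of the subunits spanned from 4.12 FPKM (Phf19) to 207.07 FPKM (Rbbp7) in PB mESCs. Their order was the same in both libraries, with Rbbp7 highest, followed by Jarid2, Eed, Rbbp4, Mtf2, Ezh2, Suz12, Aebp2, Ezh1 and Phf19. Rbbp7 was higher than 97.3% of the genes past the filter and Phf19 than 25.2%. Ezh2 was the main catalytic transcript, at 7.38 times the FPKM of Ezh1 in PB and 7.68 times in PB-TERRA. Mtf2 was the main Polycomb-like transcript among the members, at 13.7 times the FPKM of Phf19 in PB. Jarid2 plus Aebp2 summed to 137.27 FPKM and Mtf2 plus Phf19 to 60.67 FPKM in PB, a ratio of the latter to the former of 0.442, and this ratio was 0.463 in PB-TERRA.

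**Figure D1:**
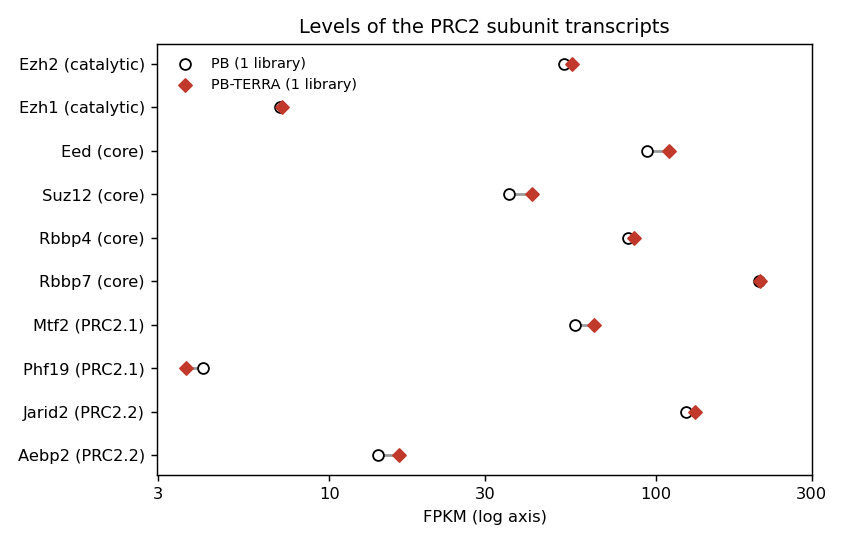
FPKM of the 10 PRC2 subunits on a log axis, PB as open circles and PB-TERRA as red diamonds, 1 library each, with the role of each gene in brackets. The order from Rbbp7 (207.07 in PB) to Phf19 (4.12 in PB) was the same in both libraries, and the diamond lies to the right of the circle for all subunits but Phf19.

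The transcripts of 9 of the 10 subunits were higher in PB-TERRA mESCs and 1, Phf19, was lower. The median log2 ratio of the 10 was 0.09, and the values ranged from -0.17 to 0.24. A log2 ratio above 0 was found for 48.6% of all genes past the filter. None of the 10 reached a log2 ratio of 1 in either direction (0 of 10, against 0.913% of all genes), and none reached 0.25 in either direction, although 8.02% of all genes were higher and 9.6% lower by at least that much. The differences of the subunits were thus small in size, as were those of most genes in their range of levels. Of the 9003 genes in that range, 1007 were past 0.25 in either direction and 19 past 1. For 7 of the 10 the counting interval lay above 0, and for 0 it lay below, while among all genes it lay above 0 for 18.2% and below 0 for 17.6%. Among the 8522 genes with at least as many reads as Phf19, the member with the fewest, these shares were 21.99% and 20.2%. The 7 subunits had more reads than Phf19 and so narrower intervals, and the shares among genes read as deeply as they are not given here. Of the 8 mESC markers, the interval lay above 0 for 3 and below 0 for 3. Dividing each FPKM by its column sum added 0.04 to every log2 ratio. It left 9 of the 10 subunits higher and put the interval above 0 for 8 of them, against 58.7% and 25.02% of all genes. Of all genes, 12.3% then had an interval below 0, and 3 subunits (Suz12, Eed and Aebp2) were past 0.25. They lay just past it, at 0.27, 0.26 and 0.25, and the share of all genes past 0.25 at this scaling is not given here.

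**Figure D2:**
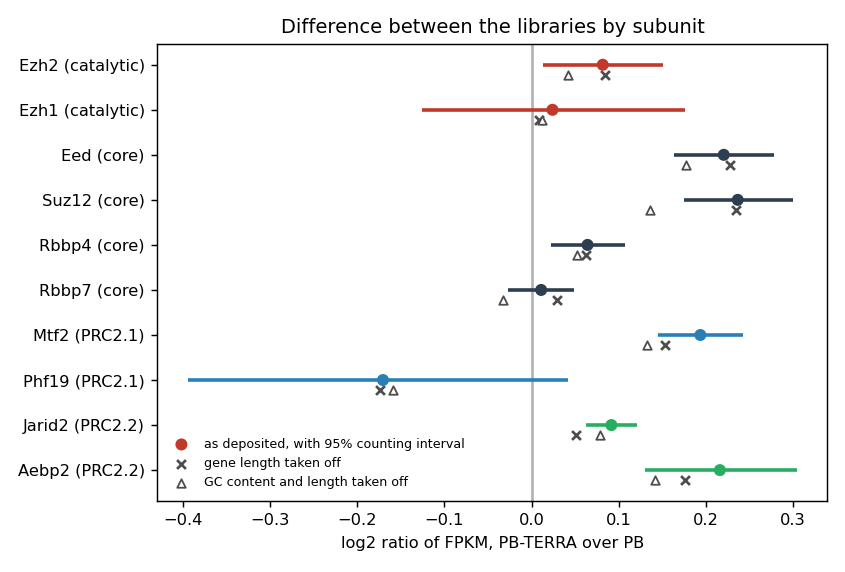
Log2 ratio of FPKM, PB-TERRA over PB, for each subunit (filled circles, coloured by role) with its 95% counting interval (bars). Crosses give the value with the median of genes of like length taken off, and open triangles that with genes of like GC content and length. The bars of Eed, Suz12, Mtf2 and Aebp2 lie farthest to the right, and only the circle of Phf19 lies left of 0.

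Ezh2 (NCBI Gene 14056), the catalytic subunit of dividing cells, had 52.17 FPKM in PB mESCs against 55.21 in PB-TERRA mESCs, from about 3305 and 3514 reads. Its log2 ratio was 0.08 (95% interval 0.01 to 0.15), 5.83% higher in PB-TERRA. With the depth set 1.5 times lower, the interval of Ezh2 included 0, and 6 of the 10 subunits then had an interval above 0. Ezh1 (14055), the weaker methyltransferase, which prevails in cells that have stopped dividing, had 7.07 and 7.19 FPKM, from about 719 and 735 reads. The log2 ratio of Ezh1 was 0.02, and its interval, -0.13 to 0.18, included 0, so a difference was not detectable at this depth. The ratio of Ezh2 to Ezh1 differed between the libraries by 0.06 on the log2 scale (exact interval -0.11 to 0.22).

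Eed and Suz12, the subunits that the enzyme needs for its activity, differed more than Ezh2. Suz12 (52615) had the highest log2 ratio of the 10, though not with GC content and length taken off, where Eed and Aebp2 stood above it. It had 35.41 FPKM in PB mESCs against 41.73 in PB-TERRA mESCs (log2 ratio 0.24, 95% interval 0.17 to 0.30), from about 3795 and 4493 reads. That is 17.8% more in PB-TERRA. Eed (13626) had 94.04 and 109.57 FPKM, a log2 ratio of 0.22 (95% interval 0.16 to 0.28) and 16.5% more, from about 4548 and 5323 reads. Single genes with a mean FPKM within 2-fold of that of the subunit give a measure of how usual such values are. The log2 ratio of Suz12 exceeded that of 96.4% of 3133 such genes, that of Eed exceeded 96.6% of 1368, and that of Ezh2 exceeded 76.5% of 2503.
Relative to Ezh2, Suz12 had a level of 0.679 in PB and 0.756 in PB-TERRA, a difference of 0.16 on the log2 scale (exact interval 0.06 to 0.25). Eed stood at 1.80 and 1.98 times the FPKM of Ezh2 (0.14, exact interval 0.05 to 0.23). Between Suz12 and Eed the ratio differed by 0.02 (exact interval -0.07 to 0.10). With GC content and length taken off, the difference was 0.09 for Suz12 to Ezh2, 0.13 for Eed to Ezh2 and -0.04 for Suz12 to Eed. For the paralogues it was then 0.03 for Ezh2 to Ezh1, 0.08 for Rbbp4 to Rbbp7 and 0.29 for Mtf2 to Phf19. The 3 pairs among Suz12, Eed and Ezh2 were added after the values were seen, to the 3 pairs of paralogues.

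The histone-binding subunits were close to equal in the libraries. Rbbp4 (19646) had 82.15 and 85.89 FPKM (log2 ratio 0.06, 95% interval 0.02 to 0.11), and Rbbp7 (245688) had 207.07 and 208.65 FPKM (log2 ratio 0.01, 95% interval -0.03 to 0.05). Rbbp7 had the most FPKM of all members, with about 11066 and 11202 reads, and thus a narrow interval, of which the upper bound was 0.05. Rbbp4 had 0.397 times the FPKM of Rbbp7 in PB and 0.412 times in PB-TERRA (difference 0.05 on the log2 scale, exact interval -0.0038 to 0.11).

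Of the Polycomb-like subunits, Mtf2 was higher and Phf19 lower. Mtf2 (17765), which binds unmethylated CpG-rich DNA, had 56.55 FPKM in PB mESCs against 64.68 in PB-TERRA mESCs, from about 6373 and 7323 reads. Its log2 ratio of 0.19 (95% interval 0.15 to 0.24) exceeded that of 94.6% of 2273 genes of like level. Phf19 (74016), a paralogue that binds methylated lysine 36 of histone H3, had 4.12 and 3.65 FPKM. With about 371 and 330 reads, the log2 ratio of Phf19 was -0.17 with an interval from -0.39 to 0.04, which included 0. The ratio of Mtf2 to Phf19 was 13.7 in PB and 17.7 in PB-TERRA, a difference of 0.37 on the log2 scale (exact interval 0.15 to 0.59).

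Jarid2 and Aebp2, which occur together in the other form of the complex, were both higher in PB-TERRA. Jarid2 (16468), a protein of the Jumonji family without demethylase activity, had the most reads of the members, about 17795 and 19049. Its FPKM was 123.18 in PB against 131.25 in PB-TERRA, so the log2 ratio was 0.09 (95% interval 0.06 to 0.12). Aebp2 (11569), a zinc finger protein that binds nucleosomes, had 14.09 and 16.38 FPKM, a log2 ratio of 0.22 (95% interval 0.13 to 0.30). The log2 ratio of Aebp2 exceeded that of 93.8% of 4436 genes of like level, and that of Jarid2 exceeded 81.4% of 1061. With gene length taken off, these shares were 90.1% for Aebp2 and 63.1% for Jarid2, and they were 95.8% for Suz12, 95.6% for Eed and 89.4% for Mtf2.

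**Figure D3:**
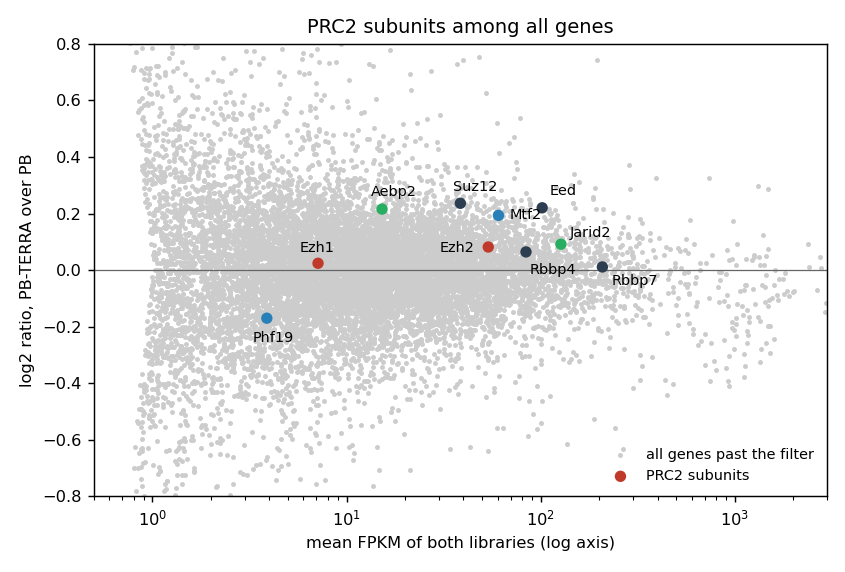
Log2 ratio, PB-TERRA over PB, against the mean FPKM of both libraries (log axis) for all genes past the filter (grey) and the 10 subunits (red catalytic, dark core, blue Polycomb-like, green Jarid2 and Aebp2), with 206 genes outside the axes. Suz12, Eed, Aebp2 and Mtf2 lie in the upper part of the grey cloud at their levels, and all 10 subunits lie within the cloud.

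Gene length moved with the log2 ratio in these libraries and is given here beside the members. The median log2 ratio was -0.06 among genes of 107 to 1054 bases, the shortest of 10 classes of like size, and 0.05 among those of 6114 to 26576 bases, the longest. The members were 2067 (Eed) to 5946 bases (Jarid2) long. With the median of genes of like length taken off, the log2 ratio was 0.23 for Suz12, 0.23 for Eed, 0.18 for Aebp2, 0.15 for Mtf2 and 0.05 for Jarid2. After the data were seen, a correction by genes of like GC content and length was added, and with it the log2 ratio was 0.14 for Suz12, 0.18 for Eed, 0.14 for Aebp2, 0.13 for Mtf2 and 0.04 for Ezh2. This correction put Rbbp7 at -0.03 and so left 8 of the 10 subunits higher.

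**Figure D4:**
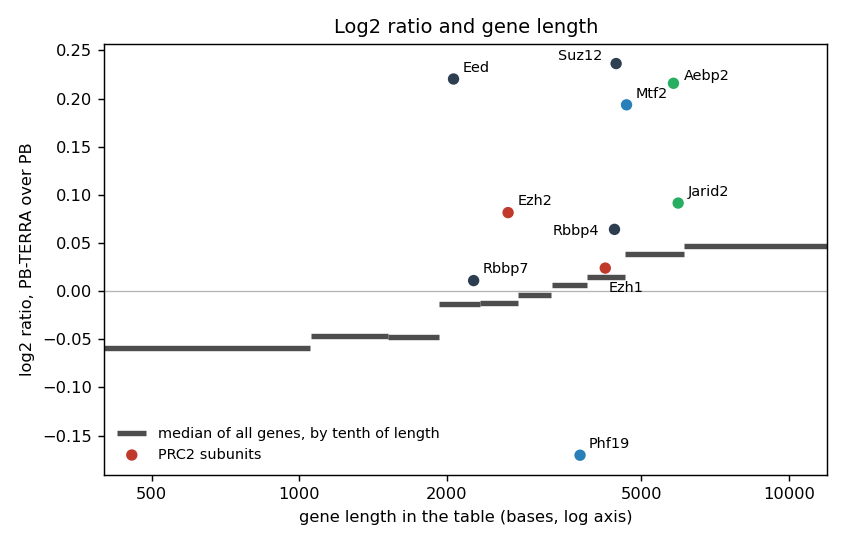
Log2 ratio, PB-TERRA over PB, against gene length in bases (log axis) for the 10 subunits (circles, coloured by role) and the median of all genes past the filter in each of 10 classes of length (bars). The bars climb from -0.06 to 0.05, and Eed, Suz12, Aebp2 and Mtf2 lie above them by more than 0.1.

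The start regions of 4 subunits are shown because Suz12, Eed and Mtf2 were among those with the largest differences and Ezh2, their catalytic partner, was not. Each is the stretch of 250 bases before the annotated start in RefSeq, genome build GRCm38.p6, read 5′ to 3′ in the direction of the gene. That of Suz12 is chr11:79992856-79993105 (+ strand), that of Eed chr7:89980977-89981226 (- strand), that of Mtf2 chr5:108065424-108065673 (+ strand, the upstream one of its starts) and that of Ezh2 chr6:47595031-47595280 (- strand). Aebp2, with a log2 ratio of 0.22 and 3 starts in RefSeq, is not shown. Capitals mark matches, on either strand, to short motifs that are bound by factors common at promoters of housekeeping and cell cycle genes.
Suz12: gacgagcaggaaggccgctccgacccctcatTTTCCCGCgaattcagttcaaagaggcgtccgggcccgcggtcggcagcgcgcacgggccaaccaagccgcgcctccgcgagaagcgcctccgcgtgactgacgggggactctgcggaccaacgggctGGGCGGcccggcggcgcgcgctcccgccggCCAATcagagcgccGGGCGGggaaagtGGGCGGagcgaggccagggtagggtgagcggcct
Eed: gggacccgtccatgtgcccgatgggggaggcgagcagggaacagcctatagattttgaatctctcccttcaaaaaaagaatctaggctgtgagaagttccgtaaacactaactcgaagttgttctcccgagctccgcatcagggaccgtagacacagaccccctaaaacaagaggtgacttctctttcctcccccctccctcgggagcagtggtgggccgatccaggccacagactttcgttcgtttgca
Mtf2: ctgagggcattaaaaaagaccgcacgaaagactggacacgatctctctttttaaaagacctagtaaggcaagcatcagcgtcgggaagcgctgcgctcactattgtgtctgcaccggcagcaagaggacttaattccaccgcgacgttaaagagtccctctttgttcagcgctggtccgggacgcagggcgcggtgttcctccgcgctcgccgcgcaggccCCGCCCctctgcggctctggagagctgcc
Ezh2: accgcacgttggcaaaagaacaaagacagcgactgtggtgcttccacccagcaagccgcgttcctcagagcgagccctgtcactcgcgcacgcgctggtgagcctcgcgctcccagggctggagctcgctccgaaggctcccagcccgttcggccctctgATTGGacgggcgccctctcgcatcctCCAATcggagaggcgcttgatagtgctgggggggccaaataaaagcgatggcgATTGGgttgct

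The motifs searched were CCAAT (the NF-Y box), GGGCGG (the GC box), CACGTG (the E-box), TTTGGCGC, TTTCCCGC and TTTCGCGC (for E2F), GCGCATGCG (for NRF1), AAGATGGCG (for YY1) and CCGGAAGT (for ETS factors). They were sought on both strands, and matches could overlap. The RefSeq table matched all 10 subunits with 14 starts, 1 each for 7 subunits. TTTCCCGC was found before Suz12 and Phf19, 2 of the 14 starts, against 0.895% of the 32851 starts of all genes. CCAAT was found before 7 of the 14 starts, 3 times before that of Ezh2, against 33.8% of all starts. GGGCGG was found before 9 of the 14, Suz12 and Mtf2 included, against 32.7%. CACGTG was found before 1 start (6.02% of all starts) and AAGATGGCG before 1 (0.606%). The other E2F motifs, TTTGGCGC and TTTCGCGC, were found before 0 of the 14 (0.417% and 0.256% of all starts), as were GCGCATGCG (1.45%) and CCGGAAGT (2.88%). No searched motif was found in the stretch of Eed, which says only that these letters are not in this window. Measured against the base content, the number of CG pairs was at least 0.6 of that expected before 11 of the 14 starts, with at least 1 such start for each of the 10 subunits, against 34.0% of all starts. It was 1.10 before Suz12 and 0.652 before Eed, and the subunit that was lower, Phf19, had 0.923.

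Reads of some members can also come from other genes. Of the 50-base stretches in the transcripts that GENCODE M21 annotates, 17.2% of those of Rbbp4 and 11.2% of those of Rbbp7 also occur, on either strand, in a transcript of another gene. The share was 5.82% for Eed, 5.56% for Mtf2, 2.60% for Suz12 and 1.11% for Ezh2, under 1% for Ezh1 and Aebp2, and 0 for Phf19 and Jarid2. No pair of members shared such a stretch (0 pairs), the paralogues Ezh1 and Ezh2 included. Exons of other genes lie over those of members on the opposite strand, and the sources used here do not say whether the counting used strand. Tmed5 overlaps Mtf2 by 395 bases and had 6.15 FPKM in PB mESCs against 7.05 in PB-TERRA mESCs. Txlng overlaps Rbbp7 by 174 bases and had 22.99 and 27.11 FPKM (log2 ratio 0.24). It shares 4.23% of the stretches of Rbbp7, and Gm6382, which was not analysed here, shares 6.97%. Sync overlaps Rbbp4 by 782 bases and had 0.59 and 0.61 FPKM. E230029C05Rik overlaps Eed by 261 bases and is listed at the floor of 0.01 FPKM in PB and at 0.10 in PB-TERRA. The noncoding genes Gm26722 over Rbbp4 (796 bases), Gm26563 over Suz12 (178 bases) and Gm26625 over Ezh2 (174 bases) were not analysed here.

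Other genes that act with or against PRC2 were described from lists. Of 5 further accessory subunits and inhibitors, 4 passed the filter, 2 higher and 2 lower. E130012A19Rik, the older symbol of Epop, which belongs to the Polycomb-like form of the complex in mESCs, had 102.42 FPKM in PB mESCs against 118.94 in PB-TERRA mESCs. Its log2 ratio of 0.22 (95% interval 0.16 to 0.27) was close to those of Eed and Suz12. Lcorl, which encodes an accessory protein of the same form, had 2.06 and 2.30 FPKM, Phf1, another Polycomb-like paralogue, 3.60 and 3.22, and AU022751, the older symbol of the PRC2 inhibitor Ezhip, 1.23 and 0.90. The intervals of these 3 included 0, and Lcor, at 0.73 and 0.71 FPKM, did not pass the filter.
The H3K27 demethylases Kdm6a and Kdm6b, which remove the mark, and Uty, the Y-linked paralogue of Kdm6a with little such activity, were higher in 3 of 3, Kdm6a at 19.70 and 20.59 FPKM, Uty at 5.87 and 6.31 and Kdm6b at 14.67 and 16.30. The interval lay above 0 only for Kdm6b (log2 ratio 0.15, 95% interval 0.08 to 0.23), and the median of the 3 was 0.10. With GC content and length taken off, Kdm6a stood at -0.01, Uty at 0.0072 and Kdm6b at 0.16, so that 2 of the 3 were higher and the median was 0.0072. Ep300 (38.00 and 41.68 FPKM) and Crebbp (10.06 and 11.17 FPKM), which acetylate the same residue, had log2 ratios of 0.13 and 0.15 with intervals above 0. With gene length taken off these were 0.08 and 0.11, and with GC content and length 0.09 and 0.13. Intervals lay above 0 for 18.2% of all genes and for 3 of 5 H3K36 methyltransferases, whose mark hinders PRC2. The median of the 5 was 0.08. These are long genes, and the median was -0.0035 with the median of genes of like length taken off and 0.03 with GC content and length. The highest were Ash1l (0.15) and Setd2 (0.14), Nsd1 stood at 0.08, and the lowest were Whsc1 (-0.04) and Whsc1l1 (-0.0062).

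Rbbp4 and Rbbp7 also belong to the NuRD and SIN3 deacetylase complexes and to the histone chaperone CAF-1. Of 17 genes for other subunits of these complexes 9 were higher and 8 lower, with a median log2 ratio of 0.0028. The interval lay above 0 for 1, the deacetylase Hdac1 (70.41 and 75.50 FPKM, log2 ratio 0.10), and below 0 for 2, Sin3b (50.61 and 44.62, -0.18) and Mta3 (42.56 and 39.59, -0.10). Over all genes it lay above 0 for 18.2% and below 0 for 17.6%. With GC content and length taken off, Sin3b stood at -0.11, Mta3 at -0.04 and Hdac1 at 0.16. Mbd2, a reader of methylated DNA and the next highest after Hdac1, had 14.25 and 15.16 FPKM with an interval that included 0. The median of these 17 genes was near that of all genes, and that of the 10 PRC2 subunits was 0.09.

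**Figure D5:**
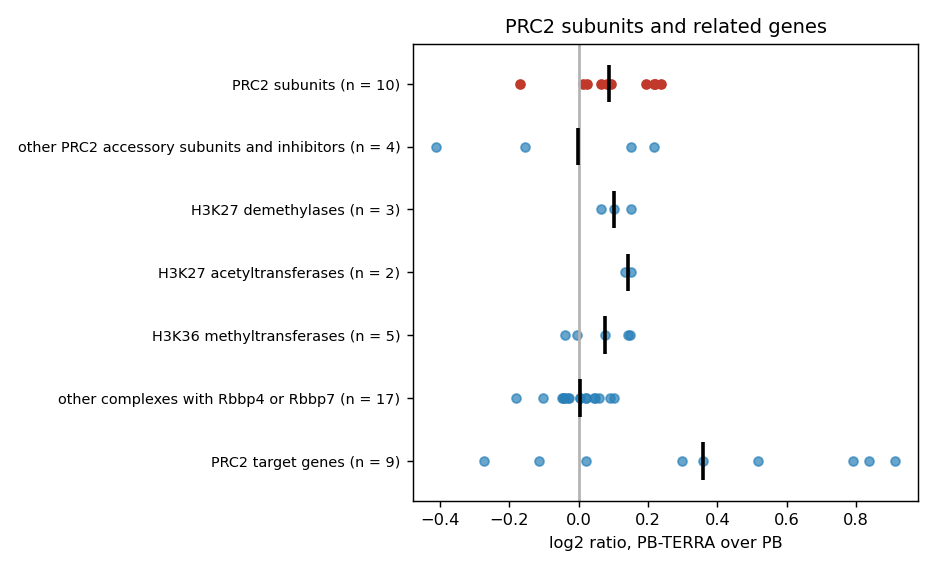
Log2 ratio, PB-TERRA over PB, of the PRC2 subunits (red) and of the genes past the filter in 6 related lists (blue), with the median of each as a black bar. The medians were 0.09 for the subunits, 0.0028 for the other complexes with Rbbp4 or Rbbp7 and 0.36 for the 9 of 24 PRC2 target genes past the filter, whose points spread from -0.27 to 0.91. Over all 24 target genes the median was 0.19 and the range -0.69 to 1.08.

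Target genes of PRC2 in mESCs were taken as a list of 24 genes, developmental regulators except for the cell cycle inhibitor locus Cdkn2a, from general knowledge of the mark, which was not measured here. Their levels were low, and 9 of the 24 passed the filter, 7 of them higher and 2 lower in PB-TERRA, with a median log2 ratio of 0.36. The median was 0.19 over all 24 with no filter, and 0.22 over the 9 with a pseudocount of 1 FPKM. All 9 had at least 1 FPKM in both libraries, and the count is a description with no test. The highest were Hand1, a regulator of trophoblast and heart (1.36 and 2.65 FPKM, log2 ratio 0.91, 95% interval 0.51 to 1.44), and Gata6, a regulator of primitive endoderm (1.22 and 2.26 FPKM, log2 ratio 0.84, 95% interval 0.52 to 1.26). The lowest were the mesoderm regulators Eomes (6.13 and 5.05 FPKM, log2 ratio -0.27, 95% interval -0.46 to -0.10) and T (9.08 and 8.37 FPKM, -0.12, 95% interval -0.31 to 0.07). With no filter, 16 of the 24 were higher, 7 lower and 1 equal, and 13 had fewer than 50 reads in both libraries. The interval lay above 0 for 5 of the 24, below 0 for 1 and included 0 for the other 18. Of the 9 past the filter it lay above 0 for 4 and below 0 for 1, against 18.2% and 17.6% of all genes past the filter. With a mean of at least 5 FPKM only Eomes and T were left, and the median turned to -0.20.
Markers of other cell types are given beside these genes, and 7 of the 24 are such markers themselves. The 5 primitive endoderm markers were all higher and summed to 5.29 FPKM in PB mESCs against 7.83 in PB-TERRA mESCs. The sums were 19.74 and 23.97 FPKM for 5 fibroblast markers (4 higher, 1 lower), 29.27 and 25.84 for 4 trophoblast markers (2 and 2), and 86.65 and 74.48 for 4 neural markers (1 and 3). Tfap2c (21.93 and 18.60 FPKM) made up most of the trophoblast sum, and Tubb3 (57.66 and 51.48) and Nes (27.30 and 20.93) most of the neural sum. Cdx2 (1.19 and 2.13 FPKM, log2 ratio 0.79) and Sox1 (1.06 and 1.56, 0.52) were higher, with intervals above 0. The counting interval included 0 for 2 of the 5 primitive endoderm markers (Sox17 and Gata4), 2 of the 5 fibroblast markers, 1 of the 4 trophoblast markers (Elf5, with about 1 and 3 reads) and 1 of the 4 neural markers. None of these markers was at the floor in both libraries, and their part in the difference of the target genes was not tested. In bulk RNA a larger number of such cells and more RNA in each of them cannot be told apart. The 8 mESC markers had a median log2 ratio of 0.01, with 4 higher and 4 lower. Their values ranged from -0.18 (Tdgf1) to 0.14 (Esrrb), and the interval lay above 0 for 3 and below 0 for 3.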

How the data were processed

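The authors sequenced RNA from 46C mESCs, 1 library with the PB vector and 1 with PB-TERRA. The authors deposited 1 table with a gene length, 2 columns of expression values, and columns of their own fold changes, p-values and adjusted p-values, which were not used. The deposited values are read as FPKM, rounded to 2 decimals with a floor of 0.01, because the submitters' processing notes name Cufflinks (beside HISAT and the build mm9, with no versions) and the header names no unit. The annotation is not given in the sources used here.

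Reads were estimated as FPKM times depth times gene length less 115 bases. These bases and the depth of each library were fitted so that low FPKM values of genes between 400 and 800 bases long fell on whole reads. In PB 82.3% of 384 such values lay within 0.15 of a whole read, and in PB-TERRA 84.2% of 412. These values were used in the fit, so the shares describe it and are no separate check. Reads summed over genes came to 24767745 and 24873666. The computations were tested on simulated data. The filter was 1 FPKM in at least 1 library, the pseudocount 0.1 FPKM, and the thresholds on the log2 ratio 1 and 0.25. Ratios between subunits have exact conditional intervals of the odds ratio. Length was corrected in 50 bins and GC content with length in 10 by 10 bins, with GC content from GENCODE M21 (GRCm38) for 96.0% of the genes past the filter. The members and lists were chosen with earlier results of these data known. Named were the 10 members and, of each related list, the 2 highest and 2 lowest genes past the filter or, for lists of at most 5 genes, all. Genes that overlap members, other cell type markers as sums or singly, and the 3 added pairs were named after the values were seen. Computations ran in Python 3.11.15 with scipy 1.17.1, pandas 2.3.3 and numpy 2.4.6, and plots were drawn with matplotlib 3.10.9.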

Additional observations from a re-analysis of the deposited data

How the results depend on the processing

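No paired analysis was possible because each condition has 1 library, and for the same reason no replicate could be left out. The median log2 ratio of the subunits lay between 0.07 (GC content with length) and 0.12 (division by the column sum), and 8 or 9 of them were higher, under the alternatives tried (pseudocounts of 1 and 0.01 FPKM, no filter, a mean of at least 5 FPKM, centring, division by the column sum, length, and GC content with length). The number with a counting interval above 0 was 7 with the depth set 1.5 times higher or no bases taken off and 6 with the depth set 1.5 times lower, where the interval of Ezh2 included 0. The number of subunits that were lower went from 1 to 0 with a mean of at least 5 FPKM, which removes Phf19, and to 2 with GC content and length taken off. Division by the column sum put 3 subunits just past 0.25, the highest at 0.27, and the share of all genes past 0.25 at this scaling is not given here. The number of all genes past a log2 ratio of 1, higher or lower, went from 112 to 45 with a pseudocount of 1 FPKM, 512 with no filter, 17 with a mean of at least 5 FPKM and 66 with GC content and length taken off. The median of the PRC2 target genes was -0.20 for the 2 genes left at a mean of 5 FPKM or more, and that of the H3K27 demethylases was 0.0072 with GC content and length taken off. With a pseudocount of 1 FPKM the ratio of Ezh2 to Ezh1 was 6.59 in PB and 6.86 in PB-TERRA, and that of Mtf2 to Phf19 was 11.2 and 14.1. Counting error limits Phf19 and Ezh1 most among the members.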

Other observations

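The table's own annotation gives a wider view of the Polycomb group. The term ESC/E(Z) complex is carried by 5 genes, all of them members (Ezh1, Ezh2, Eed, Mtf2 and Phf19), and Aebp2 has no component term. The term PcG protein complex is carried by 23 genes, 6 of them members, and 21 had enough expression to be described. The 6 members were all higher in PB-TERRA. Of the 15 other genes 10 were higher and 5 lower, with a median log2 ratio of 0.04, where 48.6% of all genes were higher. The counting interval of these 15 lay above 0 for 5 and below 0 for 1, against 18.2% and 17.6% of all genes past the filter. It included 0 for the other 9. The highest was Bmi1, a RING finger subunit of Polycomb repressive complex 1, with 2.63 FPKM in PB mESCs against 3.71 in PB-TERRA mESCs (log2 ratio 0.48, 95% counting interval 0.24 to 0.74). It was chosen after its value was seen. These are values of 1 library per condition.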
